A study of Homo sapiens with 22 samples.

Results

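The regions described are long exon bins, exonic stretches of at least 1000 bp in gene models that carry the name of a single gene. An exonic bin is a piece of exon cut wherever the exon boundaries of a gene's transcripts differ. Of the 2635 bins in the authors' exon usage table, 318 in 246 gene models met both conditions (12.1%). Of the rest, 1288 were shorter bins of single-gene models and 1029 belonged to models that join several genes under one name. The study profiled HEK293T, a human embryonic kidney cell line, in 22 libraries, of which 12 were mRNA-seq libraries in 6 groups of 2. Wild-type controls of the HNRNPG series were set against HNRNPG knockdowns KD1 and KD2. A separate set of wild-type controls was set against knockdown of METTL3 and of METTL14. How the genes were knocked down, what distinguishes KD1 from KD2, and whether both libraries of each group were grown as separate cultures, the sources used here do not say. The remaining 10 libraries, PAR-CLIP of HNRNPG, some of it paired with an m6A pull-down, were not analysed here.

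The gene RBMX encodes HNRNPG, a protein of the nucleus that binds RNA and acts in exon choice during splicing. METTL3 and METTL14 form the complex that writes N6-methyladenosine (m6A), the most common internal modification of mRNA. METTL3 carries the catalytic site and METTL14 holds the RNA substrate. In mRNA, m6A is known to gather in long internal exons, around the stop codon and in the last exon, so long exons are where much of the mark lies. Most internal human exons are far shorter than the bins described here. Long exons are typically last exons, which hold most of the 3' untranslated region, or retained and alternative end stretches. Coding or untranslated status of each bin was not analysed here.

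All changes are log2 of knockdown over control, so that a negative value is lower usage of the bin in the knockdown. Usage in DEXSeq, the tool the labels name, is the signal of a bin relative to its gene model, so a low value is not in itself less RNA of the gene. Each bin has 1 value per knockdown from the authors and none per library. Levels of the targeted genes were not analysed here, so the depth of each knockdown is unknown. No error, p-value or depth per bin was used here, so no difference was tested and every count below describes these values. A bin was counted as higher or lower by the sign of its value, and a change of at least 0.5 in size marked the larger ones.

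The long bins had a median length of 1783.5 bp, with the middle of the range from 1313 to 2549 bp, and the longest reached 10747 bp. They lay on 22 chromosomes, 142 on the plus strand and 176 on the minus strand. A single long bin was listed in 189 models, 2 in 46 models, 3 in 9 models and 4 in 1 model, and the NAA50 model held 6. The shortest members were bins of C6orf167 (1005 bp), DNM1 (1017 bp), HIST1H2BK (1022 bp) and TBX3 (1027 bp). Just under the limit were bins of ARFGAP1 and MBD5 (both 999 bp), YARS (998 bp) and CHUK (997 bp). The TBX3 bin had -0.75, -0.98, -0.55 and -0.50 for KD1, KD2, METTL3 and METTL14, according to the authors' deposited table. In that order the ARFGAP1 bin had -0.05, -0.31, -0.49 and -0.14, as given by the authors' deposited table. A listed m6A site fell inside 29 of the long bins (9.12%) and inside 36 of the shorter single-gene bins (2.80%). Per length the long bins held fewer, with 5.67 sites per 100 kb against 12.4 in the shorter bins. For the 289 long bins without a site, the median distance to the nearest listed site of the model was 10565 bp. That site lay upstream, toward the 5' end, for 230 long bins (72.3% of all 318), against 55.0% of the shorter bins.

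The first question was how long bins were used when HNRNPG was depleted. Usage was lower in 217 of the 318 long bins in KD1 (68.2%) and higher in 100. Over all bins of the table, 54.0% were lower in KD1 and 45.8% higher. In KD2 usage was lower in 221 long bins (69.5%) and higher in 97, where 56.8% of all bins were lower and 43.1% higher. The median change of the long bins was -0.13 in KD1, a usage ratio of 0.911, and -0.17 in KD2, a ratio of 0.891. Over all bins these medians were -0.04 and -0.06. Both HNRNPG knockdowns were set against the same control libraries, so they are not independent of each other. Regardless of sign, long and shorter bins had changes of like size, with a median size of 0.22 in KD1 and 0.28 in KD2 for long bins against 0.21 and 0.26 for the shorter single-gene bins. In KD1, 37 long bins were lower by at least 0.5 (11.6%), beside 9.03% of all bins, and 18 were higher by that much, beside 6.00%. In KD2, 44 were lower by at least 0.5 (13.8%), beside 13.9% of all bins, and 21 were higher, beside 7.78%. Larger changes in KD2 were thus about as frequent in long bins as in the table as a whole.

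The share of bins with higher usage in the HNRNPG knockdowns was smaller in the longer classes. Among single-gene bins of 100 to 199 bp, 51.8% were higher in KD1 and 50.0% in KD2. Bins of 500 to 999 bp, just outside the length limit, already stood at 36.8% and 35.1%. Among long bins, those of 1000 to 1499 bp had 35.9% and 40.7% higher, and those of 1500 to 2499 bp had 32.5% and 29.9%. In the 83 bins of at least 2500 bp, 24.1% were higher in KD1 and 16.9% in KD2. The median changes differed less between these classes of long bins. From shortest to longest they were -0.14, -0.13 and -0.15 in KD1 and -0.16, -0.15 and -0.19 in KD2. Bins of 500 to 999 bp had medians of -0.08 in KD1 and -0.19 in KD2. The falling share is thus one of sign, and the median change did not grow steadily with length. Over the 8 length classes the METTL3 share lay between 43.6% and 49.3%. The METTL14 share lay between 36.8% and 51.1%, and its longest class stood at 43.4%. Place along the gene differed between bins and its part in the order by length was not tested. Long bins of joined models, outside the group described here, were higher in 38 of 103 cases in KD1 (36.9%) and in 36 in KD2.

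**Figure D1:**
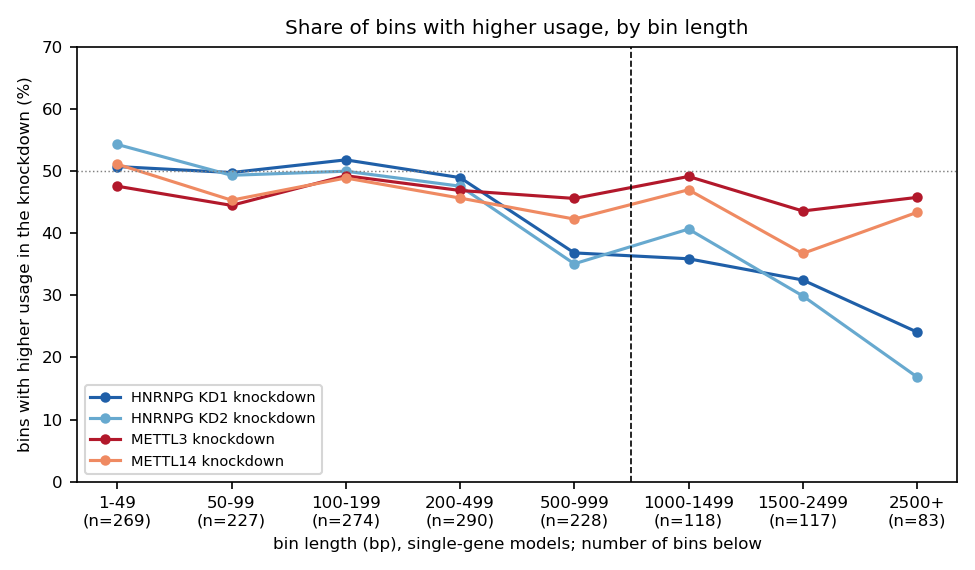
Share of single-gene exon bins with higher usage in each knockdown (y axis, percent of bins with a change other than 0) by bin length in bp (x axis, number of bins in each class below the label). Each point is 1 class and 1 knockdown, the dashed line marks the 1000 bp limit, and the dotted line marks 50%. The HNRNPG knockdowns come down to 24.1% and 16.9% in the longest class, and the METTL knockdowns end at 45.8% and 43.4%.

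In KD1 only 4 long bins were lower by at least 1 (1.67% of all bins were), and none was higher by that much (0.645% of all bins). The lowest belonged to RBM39, a nuclear protein related to the splicing factor U2AF2. Its exon bin 81 (chromosome 20, 34323357 to 34324434, minus strand) held 2 listed m6A sites and had -2.15 in KD1 and -0.62 in KD2, per the authors' deposited table. It went the other way in the METTL knockdowns, with 0.29 in METTL3 and 0.81 in METTL14, according to the authors' deposited table. The 1 shorter bin listed for RBM39 had -0.40 in KD1, as given by the authors' deposited table. ZNF664, a zinc finger protein, followed with exon bin 56 (chromosome 12, 124569908 to 124572810, plus strand). This bin had -2.02 in KD1, -0.99 in KD2, 1.01 with METTL3 and -0.58 with METTL14 knockdown, per the authors' deposited table. A second long bin of ZNF664, exon bin 25, had -0.93, -0.64, -0.52 and 0.38 in the same order, according to the authors' deposited table. Both ZNF664 bins were thus lower in the HNRNPG knockdowns and were split in the METTL ones.

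SETMAR, a methyltransferase joined to a transposase, was low in both HNRNPG comparisons and nearer 0 in the METTL ones. Its 3301 bp exon bin 27 had -1.89 in KD1 and -2.02 in KD2, beside -0.31 in METTL3 and -0.20 in METTL14, as given by the authors' deposited table. PSMB7, a subunit of the proteasome core, had -1.19 and -1.67 in exon bin 4 (chromosome 9, 127115989 to 127118492, minus strand) and -0.48 in each METTL knockdown, per the authors' deposited table. The 3 shorter bins listed for PSMB7 were also low, with medians of -0.92 in KD1 and -1.43 in KD2. ODF2L, a centrosomal protein, had -0.94 and -1.36 in exon bin 10 (chromosome 1, 86815778 to 86817687, minus strand), according to the authors' deposited table. Its METTL values were -0.56 and -0.11, as given by the authors' deposited table. The 1 shorter bin listed for ODF2L had -0.34 in KD1 and -7.16 in KD2, per the authors' deposited table, so the long bin was the higher of the pair in KD2.

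KD2 gave 7 long bins lower by at least 1 (3.00% of all bins were). Besides SETMAR, PSMB7 and ODF2L, these were bins of TRIM11, MIOS, POLR2F and DHX36. TRIM11, a ubiquitin ligase, had -1.30 in exon bin 7 (chromosome 1, 228583235 to 228584313, minus strand) in KD2 and -0.42 in KD1, per the authors' deposited table. MIOS, part of the GATOR2 complex that signals amino acids to mTORC1, had -1.25 in exon bin 39 in KD2 but 0.19 in KD1, according to the authors' deposited table. POLR2F, a subunit shared by the nuclear RNA polymerases, had -1.12 in exon bin 9 in KD2 and 0.29 in KD1, as given by the authors' deposited table. DHX36, a helicase that unwinds G-quadruplexes, had -1.06 in KD2 and -0.45 in KD1 in exon bin 1, a 3844 bp bin at the 3' end of its model, per the authors' deposited table. The 1 shorter bin listed for MIOS had 0.99 in KD2, according to the authors' deposited table. MIOS and POLR2F therefore had opposite signs in the 2 knockdowns of the same gene.

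At the upper end, PPM1A, a metal-dependent protein phosphatase, had the highest KD1 value. Exon bin 26 of PPM1A (chromosome 14, 60752460 to 60753781, plus strand) had 0.99 in KD1 and 0.21 in KD2, according to the authors' deposited table. LCORL, a transcription factor linked to body height, had 2 neighbouring long bins that were high in both comparisons. Exon bin 5 of LCORL (chromosome 4, 17882219 to 17884592, minus strand) had 0.97 and 0.92, and the METTL values were 0.87 and 0.37, as given by the authors' deposited table. Exon bin 6 of LCORL, which begins at the next base, had 0.62, 0.82, 0.95 and 0.39 for KD1, KD2, METTL3 and METTL14, per the authors' deposited table. The 4303 bp exon bin 1 of the same model, at its 3' end, had values between -0.14 and -0.01, according to the authors' deposited table. The LCORL model thus had both high and near-zero long bins.

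NFE2L2, the transcription factor NRF2 of the oxidative stress response, had 0.93 in KD1 and 0.23 in KD2 in exon bin 52 (chromosome 2, 178148533 to 178152119, minus strand), as given by the authors' deposited table. MBD5, of the methyl-CpG-binding domain family, had 0.81 in KD1 but -0.20 in KD2 in exon bin 18, per the authors' deposited table. MAPK9, the stress kinase JNK2, had 0.92 and 0.56 in exon bin 14 (chromosome 5, 179673028 to 179674438, minus strand), according to the authors' deposited table. In KD2 the single long bin higher by at least 1 (0.949% of all bins were) was exon bin 40 of MAP4, a microtubule-associated protein. It had 1.15 in KD2, 0.29 in KD1, -0.96 in METTL3 and 0.10 in METTL14, as given by the authors' deposited table. C1orf57, now NTPCR, a nucleoside triphosphatase, had 0.86 in KD2 and 0.63 in KD1 in exon bin 20, which held 2 listed m6A sites, per the authors' deposited table. XRCC3, a DNA repair protein, had 0.86 in KD2 and 0.17 in KD1 in exon bin 24 (chromosome 14, 104173553 to 104174765, minus strand), according to the authors' deposited table.

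**Figure D2:**
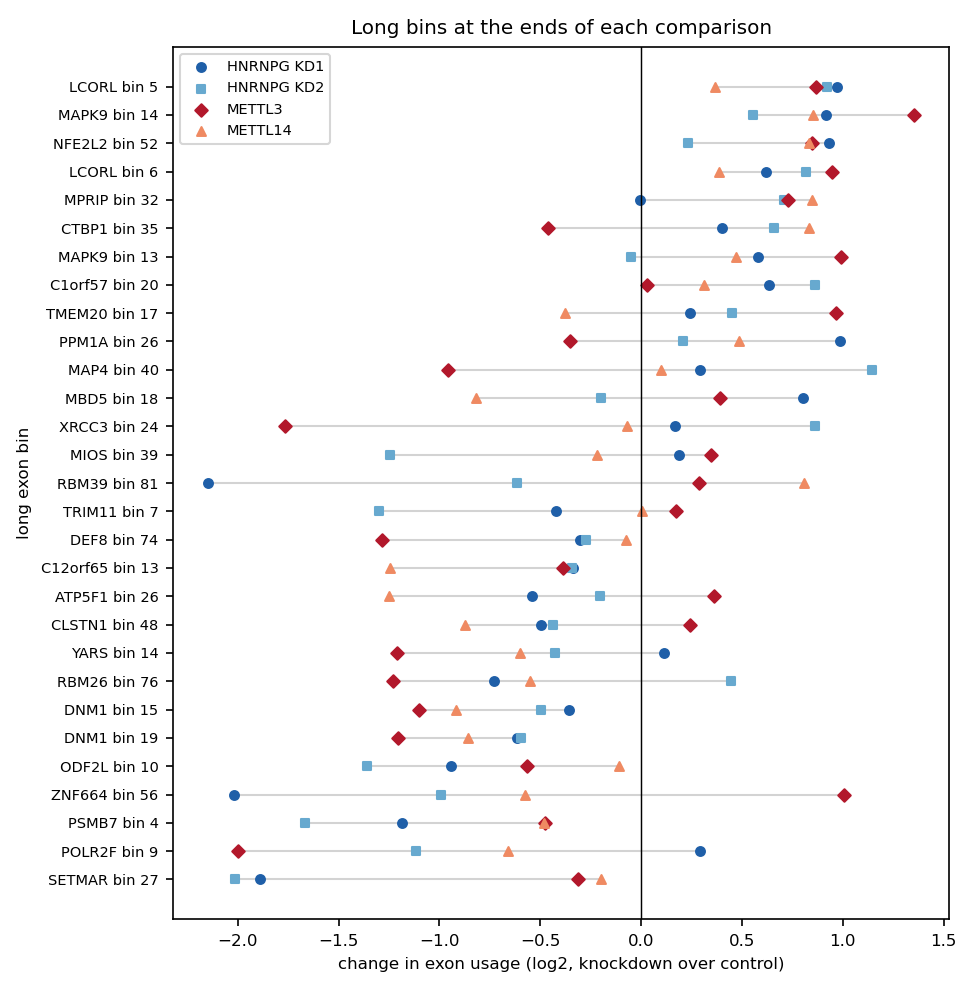
Change in exon usage (x axis, log2 of knockdown over control) of the long bins with the 5 highest and 5 lowest values in each comparison (y axis, ordered by the median of the 4 values). Each point is the authors' single value for 1 knockdown, and the grey line spans the 4 values of a bin. LCORL bin 5 and MAPK9 bin 14 lie right of 0 in every knockdown, SETMAR bin 27 and PSMB7 bin 4 lie left of 0 in every knockdown, and RBM39 bin 81 spans from -2.15 to 0.81.

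The next question was how long bins were used when METTL3, the catalytic subunit, was depleted. Usage was lower in 171 long bins (53.8%) and higher in 147, beside 53.4% lower and 46.6% higher over all bins. The median was -0.04, the same to 2 decimals as over all bins. More of the larger changes were on the lower side, with 56 long bins lower by at least 0.5 (17.6%) beside 14.8% of all bins. Another 20 were higher by that much (6.29%), beside 7.63% of all bins. Of the long bins 17 were lower by at least 1, where 3.95% of all bins were, and 2 were higher by that much, where 1.78% of all bins were.

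POLR2F had the lowest METTL3 value, -2.00 in exon bin 9 (chromosome 22, 38359507 to 38363105, plus strand), and -0.66 in METTL14, as given by the authors' deposited table. Exon bin 18 of POLR2F, the next long bin downstream, had 0.44 in METTL3 and -0.18 in METTL14, per the authors' deposited table. XRCC3 exon bin 24 had -1.76 in METTL3 and -0.07 in METTL14, according to the authors' deposited table, so its low value was in METTL3 alone. DEF8 exon bin 74 had -1.28 in METTL3, and its other 3 values lay between -0.30 and -0.07, as given by the authors' deposited table. RBM26, an RNA-binding protein of nuclear RNA surveillance, had -1.23 in exon bin 76 (chromosome 13, 79977416 to 79979838, minus strand), per the authors' deposited table. That bin held 4 of the 12 listed m6A sites of RBM26, the most of any long bin. Its other values were -0.73 in KD1, 0.45 in KD2 and -0.55 in METTL14, according to the authors' deposited table. YARS, the tyrosyl-tRNA synthetase, had -1.21 in exon bin 14 and -0.60 in METTL14, with a listed site 976 bp away, as given by the authors' deposited table.

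MAPK9 exon bin 14 had the highest METTL3 value, 1.35, and 0.85 in METTL14, per the authors' deposited table. A further long bin of MAPK9, exon bin 13, had 0.99 in METTL3 and 0.47 in METTL14, according to the authors' deposited table. Exon bin 2 of MAPK9, nearer the 3' end, had -0.13 in each METTL knockdown, as given by the authors' deposited table. The 2 upstream long bins of the kinase were therefore high while the downstream one was slightly low. ZNF664 exon bin 56 was next with 1.01 in METTL3, against -2.02 in KD1, per the authors' deposited table. TMEM20, now SLC35G1, a membrane protein of the solute carrier family, had 0.97 in METTL3 and -0.38 in METTL14 in exon bin 17, according to the authors' deposited table. Exon bin 14 of TMEM20, upstream of it, was low instead, with -0.94 in METTL3 and 0.05 in METTL14, as given by the authors' deposited table.

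In METTL14 knockdown 183 long bins were lower (57.5%) and 134 higher, beside 56.2% lower and 43.4% higher over all bins. The median was -0.05 against -0.04 over all bins. Lower by at least 0.5 were 37 long bins (11.6%), beside 10.6% of all bins, and higher by that much were 24 (7.55%), beside 5.46%. Only 2 were lower by at least 1, where 1.71% of all bins were, and none was higher by that much, where 0.873% were. Both genes encode mitochondrial proteins. ATP5F1, now ATP5PB, a stalk subunit of the ATP synthase, had -1.25 in exon bin 26 (chromosome 1, 112004524 to 112005640, plus strand) and 0.36 in METTL3, per the authors' deposited table. C12orf65, now MTRFR, a release factor of mitochondrial translation, had -1.24 in exon bin 13 and -0.39 in METTL3, according to the authors' deposited table. METTL3 and METTL14 shared control libraries, so their agreement is not counted.

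DNM1, the dynamin of synaptic vesicle endocytosis, had a pair of long bins that were low in every knockdown. Exon bin 15 of DNM1 (chromosome 9, 130987231 to 130988313, plus strand) had -0.36, -0.50, -1.10 and -0.92 for KD1, KD2, METTL3 and METTL14, as given by the authors' deposited table. Exon bin 19 had -0.62, -0.60, -1.21 and -0.86 in that order, per the authors' deposited table. CLSTN1, the membrane protein calsyntenin, had -0.87 in METTL14 but 0.24 in METTL3 in exon bin 48, according to the authors' deposited table. High METTL14 values came from exon bin 32 of MPRIP, a myosin phosphatase partner, which held a listed site (chromosome 17, 17068870 to 17070548, plus strand). It had 0.85 in METTL14, 0.73 in METTL3, 0.71 in KD2 and -0.003 in KD1, as given by the authors' deposited table. CTBP1, a transcriptional corepressor, had 0.83 in METTL14 and -0.46 in METTL3 in exon bin 35, per the authors' deposited table. NFE2L2 exon bin 52 had 0.83 in METTL14 and 0.85 in METTL3, according to the authors' deposited table.

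The study listed m6A sites for every gene model in the table, so long bins were also described by their distance to a site. Long bins with a site inside were lower in 22 of 29 cases in METTL3 and in 21 of 29 in METTL14. Their medians were -0.29 and -0.19. The 34 bins within 1000 bp of a site, but without one, were lower in 24 cases in each METTL knockdown, with medians of -0.21 and -0.14. The 255 bins farther away were lower in 125 and higher in 130 in METTL3, with a median of 0.01, and lower in 138 and higher in 116 in METTL14, with a median of -0.03. In the HNRNPG knockdowns the order of the medians was the other way. Bins with a site inside were lower in 17 of 29 in each, with medians of -0.05 in KD1 and -0.05 in KD2, and the farther bins had medians of -0.15 and -0.19. The bins within 1000 bp had medians of -0.13 and -0.18. The shares did not follow that order in KD2, where 76.5% of the bins within 1000 bp were lower and 69.8% of the farther ones. Among shorter single-gene bins with a site inside, 20 of 36 were lower in METTL3 and 21 in METTL14, with medians of -0.08 and -0.09. No test was made of these differences. A listed site is a position in the authors' table, and whether it was methylated in each group was not analysed here.

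**Figure D3:**
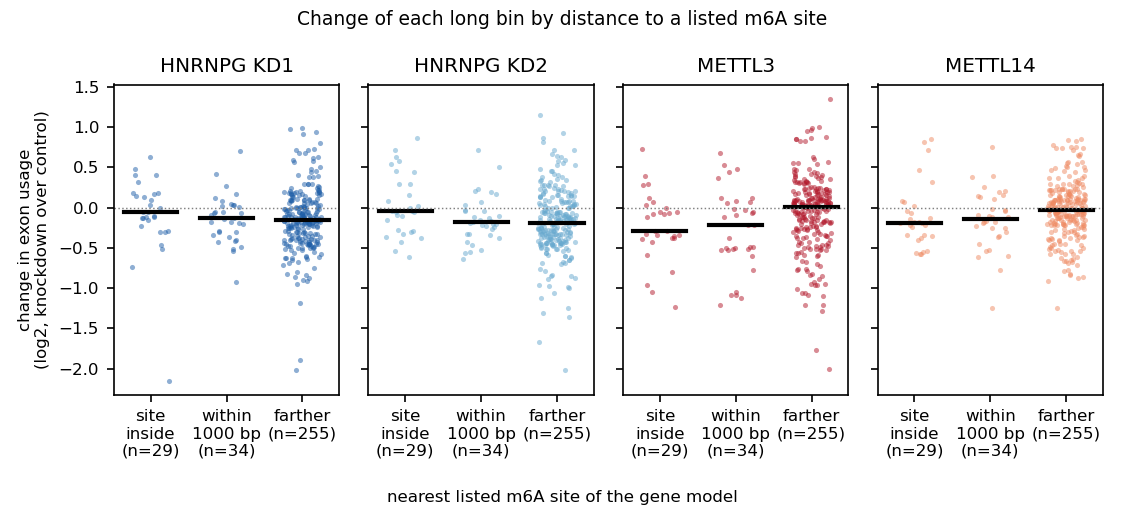
Change in exon usage of every long bin (y axis, log2 of knockdown over control) by the place of the nearest listed m6A site of its gene model (x axis), with 1 panel per knockdown. Each point is 1 bin and black lines are medians. In the METTL3 panel the medians are -0.29 with a site inside, -0.21 within 1000 bp and 0.01 farther away.

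Besides RBM39 and RBM26, described above, the genes with a site inside a long bin include others that make or process RNA, chosen here by what they are known to do and not from a fixed list. SRSF1, an SR splicing factor, was higher in every knockdown in exon bin 16, with 0.18, 0.29, 0.28 and 0.09 for KD1, KD2, METTL3 and METTL14, as given by the authors' deposited table. Exon bin 23 of SRSF1, upstream and without a site, was lower in each, with -0.17, -0.42, -0.26 and -0.79, per the authors' deposited table. C16orf57, now USB1, trims the end of U6 snRNA, and its exon bin 32 had 0.48, -0.05, -0.43 and -0.56 in that order, according to the authors' deposited table. C1orf77, now CHTOP, a protein of mRNA export, had 0.32, -0.04, -0.39 and -0.18 in exon bin 23, as given by the authors' deposited table. POLR3E, a subunit of RNA polymerase III, had -0.05, 0.46, -0.38 and -0.58 in exon bin 55, per the authors' deposited table. These genes had no common pattern, and RBM39, low in both HNRNPG knockdowns and above 0 in both METTL knockdowns, differed from C16orf57 and POLR3E.

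Ribosomal protein genes contributed RPS14 and RPS24, both of the small subunit. RPS14 exon bin 22 had -0.13, -0.38, -0.34 and -0.40 for KD1, KD2, METTL3 and METTL14, according to the authors' deposited table. Exon bin 1 of RPS14, at the 3' end, was higher in each, with 0.06, 0.27, 0.37 and 0.23, as given by the authors' deposited table. RPS24 exon bin 26 had 0.13, -0.29, -0.35 and -0.24 in that order, per the authors' deposited table. Chromatin genes were PHF10, a subunit of the BAF remodelling complex, and ING5, of histone acetyltransferase complexes. PHF10 exon bin 9 (chromosome 6, 170105821 to 170109938, minus strand) held 2 sites and had 0.19, -0.27, -0.58 and -0.54, according to the authors' deposited table. Exon bin 1 of PHF10, at the 3' end of the model, had -0.25, 0.20, -0.50 and 0.51, as given by the authors' deposited table. ING5 exon bin 27 held 3 sites and had values between -0.22 and -0.06, per the authors' deposited table.

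Among the rest, ANKLE2, which acts in reassembly of the nuclear envelope, had 0.40 and 0.58 in the HNRNPG knockdowns and -1.05 and -0.19 in METTL3 and METTL14, according to the authors' deposited table. UBE2G2, a ubiquitin-conjugating enzyme of the endoplasmic reticulum, had 0.04, 0.54, -0.96 and -0.19 in exon bin 22, as given by the authors' deposited table. MRS2, the mitochondrial magnesium channel, had -0.29, -0.30, -0.79 and -0.15 in exon bin 30, per the authors' deposited table. All 3 had their lowest value in METTL3. MRS2 was below 0 in every knockdown, as were the bins of DDHD1, a phospholipase, and ZNF8, a zinc finger protein. DDHD1 exon bin 2, with 9283 bp the second longest of all, had values between -0.43 and -0.29, according to the authors' deposited table. ZNF8 exon bin 26 had values between -0.54 and -0.34, as given by the authors' deposited table. PDXK, the pyridoxal kinase, was high throughout, with 0.41, 0.63, 0.39 and 0.72 in exon bin 26, per the authors' deposited table. DUXAP8, a pseudogene with close copies that could share reads, had values between -0.01 and 0.47 in exon bin 18, according to the authors' deposited table.

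A further 5 bins with a site had values under 0.5 in size, except that of KIAA1147 in METTL14. ANKS6 exon bin 7 lay between -0.22 and -0.05, and BOD1 exon bin 14, of a kinetochore protein, between -0.37 and -0.11, as given by the authors' deposited table. C18orf10, now TPGS2, a subunit of tubulin polyglutamylase, lay between -0.38 and -0.01 in exon bin 17, per the authors' deposited table. KIAA1147, now DENND11, lay between -0.58 and -0.05 in exon bin 9, with the lowest value in METTL14, according to the authors' deposited table. ZSCAN30, a zinc finger protein, was alone among them in lying above 0 throughout, between 0.07 and 0.18 in exon bin 17, as given by the authors' deposited table.

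Several of the bins with a site were near 0. KHNYN exon bin 26 (3730 bp) had values between -0.06 and 0.10, per the authors' deposited table. MKNK2, a kinase of the cap-binding factor eIF4E, had values between -0.11 and -0.04 in exon bin 4, according to the authors' deposited table. NUDT5, an ADP-sugar hydrolase, had values between -0.18 and 0.08 in exon bin 2, as given by the authors' deposited table. ATP2A2, the calcium pump of the endoplasmic reticulum, changed more, with -0.51, -0.36, -0.07 and -0.34 for KD1, KD2, METTL3 and METTL14 in exon bin 40, according to the authors' deposited table. SC5DL, a sterol desaturase, had -0.31, -0.09, 0.06 and -0.13 in exon bin 16, per the authors' deposited table.

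Place along the gene was read from the bin numbers. In all 449 models with several listed bins, 220 on the plus and 229 on the minus strand, numbers followed the rising genome coordinate. Bin 1 of a minus-strand model is therefore its 3' end. Of the 176 long bins on the minus strand, 35 were bin 1, 46 were bins 2 to 5 and 95 had higher numbers, while only 1 of the plus-strand long bins was bin 1. In METTL3 knockdown 26 of the 35 at the 3' end were higher (74.3%), as were 21 of 46 in bins 2 to 5 (45.7%) and 31 of 95 beyond (32.6%). The medians were 0.08, -0.02 and -0.20. In KD1 the share was greatest beyond bin 5, with 22.9%, 15.6% and 47.4% higher in the same order, and in KD2 these shares were 25.7%, 26.1% and 38.9%. In METTL14 they were 51.4%, 37.8% and 48.4%. The 21 shorter single-gene bins at the 3' end had 15 higher in METTL3 (71.4%), 11 in KD1 (52.4%), 8 in KD2 (38.1%) and 7 in METTL14 (33.3%). They were near the long ones in METTL3 and apart from them in KD1, METTL14 and, less so, KD2. These differences were not tested.

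**Figure D4:**
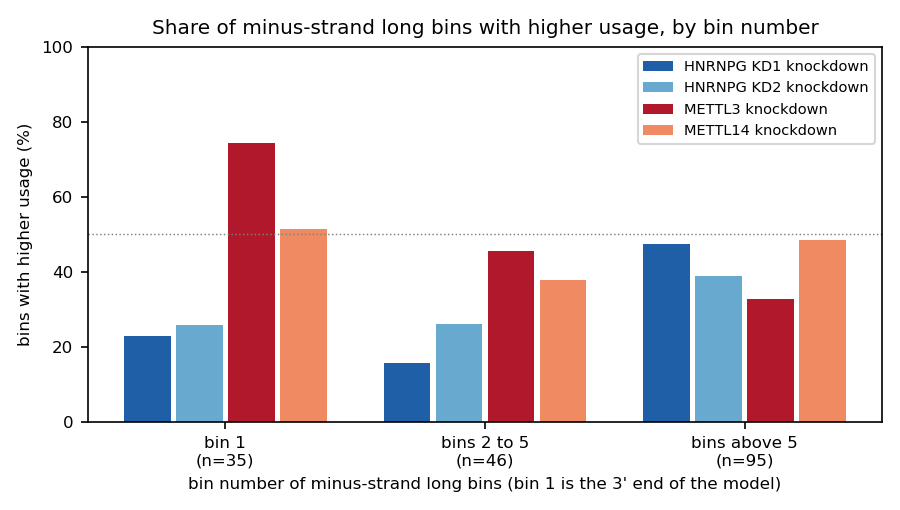
Share of minus-strand long bins with higher usage (y axis, percent of bins with a change other than 0) by bin number (x axis, where bin 1 is the 3' end of the gene model), with 1 bar per knockdown. The METTL3 bar goes from 74.3% at the 3' end to 32.6% beyond bin 5, and the KD1 bar goes from 22.9% to 47.4%.

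Place along the gene and distance to a site were not independent. None of the 35 bins at the 3' end held a listed site and 33 were over 1000 bp from one, whereas 13 of the 95 bins beyond bin 5 held a site and another 13 were near one. Among the 69 bins beyond bin 5 that were far from a site, 43 were lower in METTL3 and 26 higher, with a median of -0.15. Of the 13 with a site inside, 10 were lower, with a median of -0.32, and of the 13 near a site 11 were lower, with a median of -0.49. For long bins of both strands whose nearest site lay upstream, METTL3 usage was higher in 123 and lower in 107. Where it lay downstream, 17 were higher and 42 lower, with a median of -0.26. The total number of bins of a plus-strand model is not in the table, so its 3' end could not be placed in the same way. Among plus-strand models with several listed bins, 57 long bins were the most 3' of those listed. In METTL3, 31 of them were higher and 26 lower (54.4% higher), and in KD1, 17 were higher and 40 lower. By the same definition 68 minus-strand long bins were the most 3' of those listed, with 36 higher in METTL3 (52.9%) and 22 higher in KD1. The METTL3 share of 74.3% thus belongs to bin 1 and not to the most 3' listed bin.

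Since usage is relative, long bins were also set against shorter bins of the same model. Both kinds were listed in 162 models, and 84 models held only long bins. Taking the median of each kind per model, the long bins were below the shorter ones in 102 of 162 models in KD1 and in 97 in KD2. The median difference, long minus shorter, was -0.08 and -0.10. In METTL3 the long bins were below in 82 models and above in 80, and in METTL14 below in 80 and above in 81, with median differences of -0.01 and 0.00. In the HNRNPG knockdowns long bins were thus more often below than above the shorter bins of the same genes. Usage is already relative to the gene model, so this is the same set of values and not separate support. In the 84 models with long bins only, 79 of 108 bins were lower in KD1, 78 in KD2, 54 with METTL3 and 62 with METTL14 knockdown.

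Several long bins of one gene did not always move as one. Of 57 models with at least 2 long bins, 28 had bins on both sides of 0 in KD1, 27 in KD2, 25 with METTL3 and 26 with METTL14 knockdown. In KD1 all were lower in 23 models and all higher in 5, and in KD2 these numbers were 23 and 7. In METTL3 they were 16 and 16, and in METTL14 17 and 14. No like count was made for models of shorter bins or for long bins of unrelated genes. Whether bins of one gene split more or less often than unrelated bins was therefore not tested. The gap between the highest and the lowest long bin of a model had a median of 0.26 in KD1 and 0.35 in METTL3. CTBP1 had the widest gap in METTL14. Its exon bins 35 and 37 had 0.83 and 0.77 there, and exon bin 43 further upstream had -0.65, according to the authors' deposited table. In METTL3 the same bins had -0.46, -1.09 and -0.51, as given by the authors' deposited table.

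ENAH, an actin regulator, had the widest gap in KD1. Its 7871 bp exon bin 2 had -0.44 and exon bin 24 had 0.71, per the authors' deposited table. NAA50, a protein N-terminal acetyltransferase, held 6 long bins, all higher in METTL3, with values between 0.21 and 0.63, according to the authors' deposited table. In METTL14 the 3 nearest the 3' end lay between -0.58 and -0.50 and the 3 upstream between 0.10 and 0.24, as given by the authors' deposited table. The METTL14 values thus split the NAA50 bins by place and the METTL3 values did not. The longest bin of all, 10747 bp in NSL1 of the kinetochore, had values between -0.18 and 0.15, per the authors' deposited table. LOC729082 exon bin 21 (8533 bp) had values between -0.14 and 0.12, according to the authors' deposited table. The other 3 of the 5 longest, in DDHD1, NAA50 and ENAH, had larger values in at least 1 knockdown.

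The HNRNPG and METTL series had separate controls, so direction could be compared between them. KD2 and METTL14 lay on one side of 0 in 218 of 317 long bins (68.8%), where their separate shares alone give 53.0%. Over all bins 69.9% lay on one side in that pair. KD1 and METTL14 lay on one side in 187 of 316 (59.2%, with 52.9% from the shares), beside 61.4% of all bins. With METTL3 the counts were 177 of 317 for KD1 (55.8%, with 51.5% from the shares) and 180 of 318 for KD2 (56.6%, with 51.5%), beside 65.2% and 66.7% of all bins. With zero values left out, as for the long bins, the shares over all bins were 70.3%, 61.8%, 65.3% and 66.8% in the order given. There the separate shares alone give 50.9%, 50.5%, 50.3% and 50.5%. For shorter single-gene bins the METTL3 pairs had 67.4% with KD1 and 69.8% with KD2, with 50.1% and 50.2% from the shares. The difference between long and shorter bins was not tested. Across the long bins Pearson's r was 0.40 for KD2 and METTL14, 0.17 for KD1 and METTL14, 0.15 for KD2 and METTL3 and 0.09 for KD1 and METTL3. These correlations are descriptions over bins that share genes and libraries, and bins of one model are not independent. Of the bins changed by at least 0.5 in both, 19 of 21 lay on one side for KD2 and METTL14, and 19 of 26 for KD1 and METTL3.

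**Figure D5:**
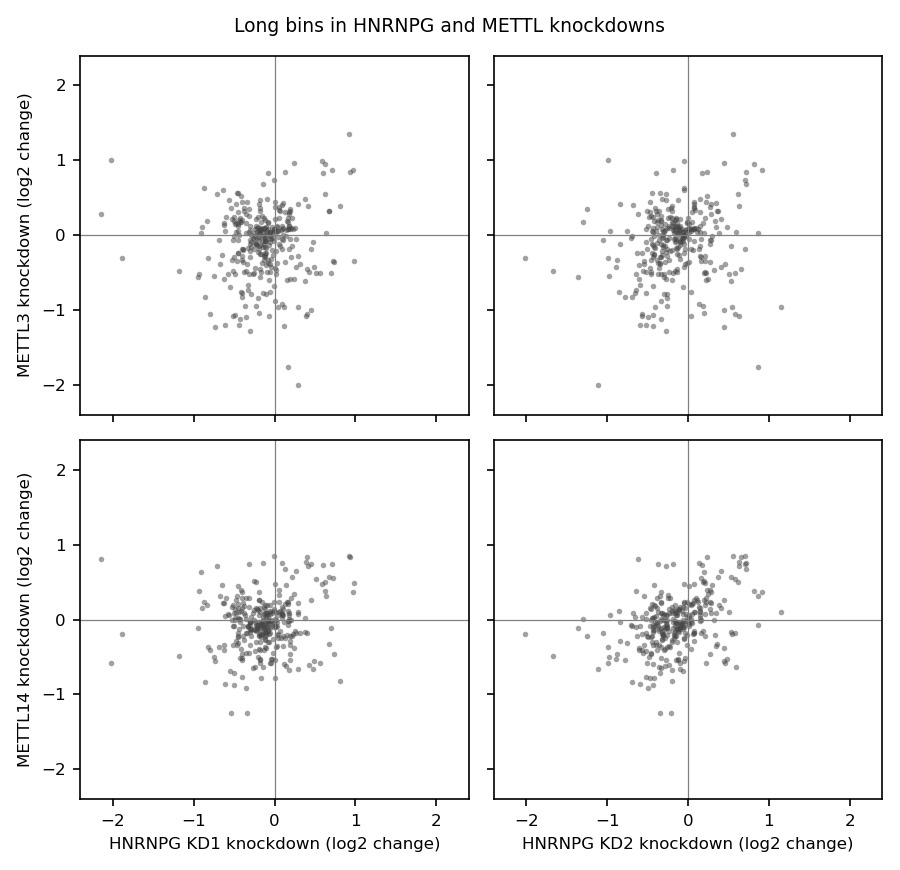
Change of each long bin in an HNRNPG knockdown (x axis, log2 of knockdown over control) and in a METTL knockdown (y axis, same unit), for the 4 pairs with separate controls. Each point is 1 bin. The cloud is tilted most for KD2 and METTL14 (r = 0.40) and least for KD1 and METTL3 (r = 0.09), and its centre lies left of 0 for KD1 and KD2.

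Genes were grouped by symbol, and a gene could be in several groups or in none. Counts by group are read beside the share lower over all bins, 54.0%, 56.8%, 53.4% and 56.2% in the order KD1, KD2, METTL3 and METTL14. Over all long bins these shares were 68.2%, 69.5%, 53.8% and 57.5%. No group was tested against them, the groups are small, and none is called different from the long bins as a whole. Groups formed by symbol hold some genes by name only, such as LRPPRC among signalling proteins and TXNL4A, a spliceosome protein, among metabolic enzymes. They also leave out genes of the same function whose symbols did not match, so all counts by group are of matched genes only. The ubiquitin and proteasome group, which marks and degrades proteins, had 19 long bins. Usage was lower in 16 of them in KD1 and in 16 in KD2 (84.2% each, beside 68.2% and 69.5% of all long bins), with medians of -0.33 and -0.24. In METTL3 9 were lower and in METTL14 10. Besides PSMB7, DDB2, which recognises damaged DNA for a ubiquitin ligase, had -0.80, -0.56, -1.06 and -0.41 in exon bin 41, as given by the authors' deposited table. PIAS2, a SUMO ligase, had -0.37, -0.51, -0.49 and 0.09 in exon bin 5, per the authors' deposited table. UBE2N exon bin 1, of the enzyme that builds K63-linked chains, had -0.90, -0.39, 0.10 and 0.15, according to the authors' deposited table and was chosen after its values were seen.

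Membrane trafficking genes matched by symbol had 13 long bins, of which 11 were lower in each HNRNPG knockdown, 11 in METTL3 and 8 in METTL14. These are 84.6% in the first 3 comparisons, beside 68.2%, 69.5% and 53.8% of all long bins, and 61.5% in METTL14, beside 57.5%. The medians were -0.24, -0.50, -0.44 and -0.15. Trafficking genes with other symbols were not counted, and their long bins lay on both sides of 0 in METTL3. EPS15L1 exon bin 18 had 0.85 there and GOSR2 exon bin 31 had -0.47, according to the authors' deposited table. M6PR, a receptor that sorts lysosomal enzymes, was evenly low, with -0.86, -0.69, -0.83 and -0.84 in exon bin 33 (chromosome 12, 9100028 to 9101902, minus strand), as given by the authors' deposited table. With the DNM1 pair it completed the named bins of the group, and all 3 were low in every knockdown. SEC22B, a vesicle fusion protein chosen after its values were seen, was high instead, with 0.67, 0.38, 0.32 and 0.57 in exon bin 17, per the authors' deposited table.

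Splicing factors and other RNA-binding proteins had 19 long bins, of which 16 were lower in KD1 (84.2%, beside 68.2% of all long bins) and 10 in KD2 (52.6%, beside 69.5%), with medians of -0.31 and -0.06. In the METTL knockdowns 8 were lower and 11 higher in each. After RBM39 and RBM26, HNRPDL, now HNRNPDL, an hnRNP protein, had -0.42, 0.24, 0.53 and 0.39 in exon bin 2, 581 bp from a listed site, according to the authors' deposited table. Of the transcription factor group, 26 bins in 16 models, 18 were lower in KD1, 20 in KD2, 13 with METTL3 and 14 with METTL14 knockdown. The shares were 69.2%, 76.9%, 50.0% and 53.8%, beside 68.2%, 69.5%, 53.8% and 57.5% of all long bins. Chromatin genes had 13 bins in 9 models, and MBD5 and PHF10 each gave several of them. In the same order 8, 11, 8 and 10 were lower, or 61.5%, 84.6%, 61.5% and 76.9%. HIST1H2BK, a histone H2B gene, had -0.40, -0.52, -0.77 and -0.77 in exon bin 2, as given by the authors' deposited table. Its bin lay 315 bp from the listed site of the model, and histone genes have near-identical copies that could share reads.

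Translation factors and ribosomal proteins had 12 long bins, with 7, 10, 6 and 9 lower in KD1, KD2, METTL3 and METTL14. That is 58.3%, 83.3%, 50.0% and 75%, beside 68.2%, 69.5%, 53.8% and 57.5% of all long bins. Over all bins 54.0%, 56.8%, 53.4% and 56.2% were lower. RPS6KB1, a kinase also counted among signalling proteins, is in this group by name. RPL31 exon bin 36 had -0.53, -0.46, -0.33 and -0.01, per the authors' deposited table. Kinases, phosphatases and signalling proteins had 15, with 10, 11, 6 and 10 lower (66.7%, 73.3%, 40.0% and 66.7%). PPP2R5E, a regulatory subunit of phosphatase PP2A, had -0.50, -0.43, -1.06 and 0.01 in the 2724 bp exon bin 1, according to the authors' deposited table. Cytoskeleton and adhesion genes had 8, with 4, 2, 2 and 4 lower (50%, 25%, 25% and 50%), and 5 of these 8 bins came from MPRIP and ANKRD11. ANKRD11, a chromatin regulator, was in this group by name only. MPRIP exon bin 31, which ends where bin 32 begins, had -0.14, 0.72, 0.68 and 0.75, as given by the authors' deposited table.

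The 6 long bins of mitochondrial proteins matched by symbol were lower in 4, 4, 4 and 6 cases. At 66.7% in KD1 and KD2 they stood about where all long bins did, at 68.2% and 69.5%, and METTL3 and METTL14 had 53.8% and 57.5% over all long bins. Mitochondrial proteins with other symbols were not counted. In METTL14 the named bins of C12orf65 and MRS2 were lower and the long bin of PPA2 was higher (0.76), according to the authors' deposited table. ACAD9, an assembly factor of respiratory complex I, had -0.41, 0.04, -0.76 and -0.39 in exon bin 12, and MRPS11 had -0.40, -0.04, -0.18 and -0.51 in exon bin 33, per the authors' deposited table. Transporters and metabolic enzymes had 11 bins, with 8, 7, 5 and 8 lower (72.7%, 63.6%, 45.5% and 72.7%). NME6, a nucleoside diphosphate kinase, had 2 long bins with the same pattern. Exon bin 1 of NME6 had -0.46 and -0.34 in KD1 and KD2 and 0.56 and 0.31 in METTL3 and METTL14, according to the authors' deposited table. Exon bin 2 of NME6 had -0.38, -0.41, 0.36 and 0.18, as given by the authors' deposited table. Cell cycle and repair genes had 7 bins, with 4, 2, 2 and 2 lower (57.1% in KD1 and 28.6% in each of the others). CCDC45, now CEP95, a centrosomal protein, had -0.45, 0.02, 0.15 and 0.45 in exon bin 8, per the authors' deposited table. CDC5L, a spliceosome protein in this group by name, had -0.11, -0.16, 0.21 and 0.19 in exon bin 27, according to the authors' deposited table. For polyadenylation, small RNA, export and decay a single bin was matched by symbol, of the nuclear pore gene NUPL1. It had 0.70, -0.19, -0.51 and -0.12, as given by the authors' deposited table. FIP1L1, a polyadenylation factor, and C1orf77 and C16orf57, described above, also had long bins but were not matched. The 171 bins in no group were lower in 112, 118, 96 and 95 cases (65.5%, 69.0%, 56.1% and 55.6%), close to the shares of all long bins.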

How the data were processed

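RNA-seq libraries of HEK293T cells were stranded mRNA libraries, per the labels' protocols, and reads of 4 lanes were combined per sample. For each exonic bin the authors deposited 1 value per knockdown, the log2 of control over knockdown, per the file headers. The sample descriptions name DEXSeq. Build hg19 and the tools TopHat 1.1.4, Bowtie 1.0.0, Cuffdiff, Cufflinks and Trimmomatic appear, with no role, per the submitters' processing notes. The normalization, the DEXSeq version and the choice of listed bins are unknown: not given in the sources used here. Depth per library is unknown.

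Signs were turned to knockdown over control. Coordinates are hg19, counted from 1 with both ends included. A joined model has "and" before a capital letter in its name. Of 246 models, 205 carried a current symbol, 33 an older one with a single current match and 8 neither. Long bins and gene groups were chosen with earlier results of these data known. Bins were named by rule: the 5 highest and 5 lowest per knockdown, the 5 longest, all with a listed site inside, and up to 3 per group of genes by median size. The rule took 73 bins in 68 models. Other bins of those models, and bins of DHX36, TBX3, ARFGAP1, UBE2N, SEC22B, PPA2, EPS15L1 and GOSR2, were added after their values were seen. No sequence is printed, since no genome of the files' build was used here. Counting and site assignment were tested on simulated data. Python 3.11.15, numpy 2.4.6, pandas 2.3.3, scipy 1.17.1 and matplotlib 3.10.9 were used.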

Additional observations from a re-analysis of the deposited data

How the results depend on the processing

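The share of long bins with higher usage and the median change were recomputed for each knockdown under 11 alternatives, 1 of them (models named LOC, HCG or DUXAP left out) chosen after the data were seen. Leaving out values beyond 5 in size removed no long bin, so that alternative says nothing about stability. Under the others the value stayed inside the 95% binomial interval of the reported one in 66 cases, in 14 it did not, and no direction turned. These intervals treat the bins as independent, so they only mark how far a setting moved a value. For METTL3 they ran from 40.6% to 51.9% for the share higher and from -0.084 to 0.026 for the median. Both METTL3 intervals include no change, so METTL3 had no clear direction to turn. With only changes of at least 0.25 in size, the share higher was 25.5% in KD1, 24.3% in KD2 and 34.8% in METTL3, against 31.5%, 30.5% and 46.2% as reported, and the medians were -0.39, -0.36, -0.36 and -0.34 in KD1, KD2, METTL3 and METTL14. At 0.5 the METTL3 share was 26.3% and the medians were -0.57, -0.56, -0.61 and -0.54. These medians leave out the small changes by construction. A length minimum of 1500 bp gave a KD2 share of 24.5%, and 2000 bp gave 22.0%. The KD2 median moved little, with -0.167 and -0.1745 at these minimums beside -0.167 as reported. No paired analysis was possible because the table holds 1 value per knockdown, and for the same reason no library could be left out. Bins of one model are not independent, and precision per bin is unknown.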
